A study of Arabidopsis thaliana with 6 samples.

Results

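Class III peroxidases of the Arabidopsis inflorescence stem were compared between pith, phloem cap and remaining vascular bundle. The members were 48 genes taken by their gene identifiers from a count table of 37051 genes, a list that uses no measured value but was set with earlier results of these data known. Levels came from RNA-seq on tissue cut out by laser capture microdissection from the second internode of untreated wild-type Col-0 plants, which had been grown in short days and then moved to long days to flower. There were 2 libraries each for the pith (S34 and S35), the phloem cap (S32 and S33) and the vascular bundle from which the phloem cap had been removed (S30 and S31). Tissue was recognised in sections by position, so that each library holds several cell types, and neither the number of plants per library nor whether replicates came from separate plants is stated. P-values therefore measure the spread between these libraries only. In bulk tissue, fewer cells of a type and less RNA per cell cannot be told apart.

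Class III peroxidases are heme enzymes that plants secrete into the cell wall and the vacuole, and horseradish peroxidase is the best known of them. They use hydrogen peroxide to oxidise phenolic compounds, including the monolignols that are joined into lignin in xylem, fibres and the Casparian strip, and can cross-link wall proteins and phenolics. Under other conditions the same enzymes produce reactive oxygen species, which can loosen walls during elongation and take part in defence. The family is large and many of its genes lie beside close copies, so single genes are often hard to assign a role.

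The libraries held 19324189 to 22571632 counted reads, and 3 reads, the upper limit for a gene counted at 0, were worth 0.133 to 0.155 CPM (counts scaled to a common library size). Such limits cover counting error only, because the RNA had been amplified. The 6 xylem and fibre markers summed to 195 and 153 TPM (a level corrected for gene length and scaled to the same total in each library) in pith, 178 and 532 TPM in phloem cap and 4491 and 4944 TPM in vascular bundle. The 9 phloem markers summed to 39.1 and 53.9 TPM in pith, 3547 and 2265 TPM in phloem cap and 1567.5 and 1010 TPM in vascular bundle. The 2 phloem cap markers of the study, CYP83A1 and CYP83B1, summed to 201 and 116 TPM in pith, 2580 and 3244 TPM in phloem cap and 1032.5 and 824 TPM in vascular bundle. The study's pith gene ANAC074 (AT4G28530) had 6.74 and 4.88 TPM in pith and at most 0.536 TPM elsewhere. The phloem cap libraries stood apart from each other. S33 had more xylem and fibre signal than S32, as well as a higher sum of the 6 epidermis markers, at 138 against 31.6 TPM, where vascular bundle libraries had 477 and 545 TPM. The epidermis marker LTP1 (AT2G38540) went against this sum. It had 17.2 TPM in S32, 1.62 TPM in S33 and 1.14 and 0.986 TPM in vascular bundle. All 6 xylem and fibre markers were detected in every library, whereas the epidermis marker PDF1 was at 0 in all libraries except S32.

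Among the 48 peroxidase genes, 12 had no read in any library and another 13 had 1 to 30 reads over all libraries together. Only 20 genes exceeded 1 TPM in at least 1 library, and 11 exceeded a mean of 10 TPM in at least 1 tissue. The 48 members together made up 1.20% ± 0.19 of all TPM in pith, 0.635% ± 0.0709 in phloem cap and 0.442% ± 0.0395 in vascular bundle (SD, n = 2 each). Both pith libraries lay above the other 4 libraries, and both phloem cap libraries lay above both vascular bundle libraries. Shares of this kind are descriptions and were not tested.

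**Figure D1:**
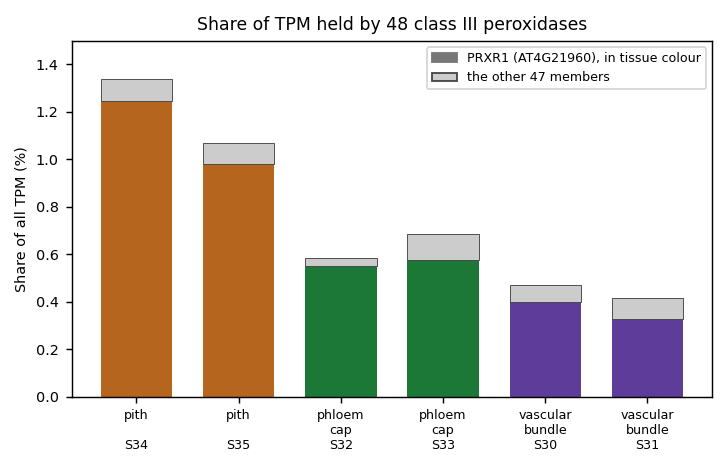
Share of all TPM (%, vertical axis) held by the 48 class III peroxidases in each library, with PRXR1 in the tissue's colour and the other 47 members in grey on top. The pith bars, at 1.34% and 1.07%, are the tallest, and PRXR1 fills most of every bar.

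A single gene, PRXR1 (AT4G21960, chr4:11646109-11648644, minus strand, TAIR10.1 coordinates as all below), carried this pattern. PRXR1 reached 12440 and 9822 TPM in pith, 5505 and 5755 TPM in phloem cap and 4007 and 3274 TPM in vascular bundle. It was the 4th most abundant of all genes in both pith libraries, ranked 7th and 5th in phloem cap and 14th and 21st in vascular bundle, and accounted for 79.1% to 94.1% of the TPM of all members in a library. Without it, the other 47 members summed to 932 and 864 TPM in pith, 343 and 1095 TPM in phloem cap and 695 and 868 TPM in vascular bundle. The 3 tissues overlapped in this remaining sum, so the order of the member totals was the order of PRXR1. The next most abundant members differed between tissues. PRXCB ranked second among members in pith, whereas PER64 ranked second in phloem cap and vascular bundle.

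**Figure D2:**
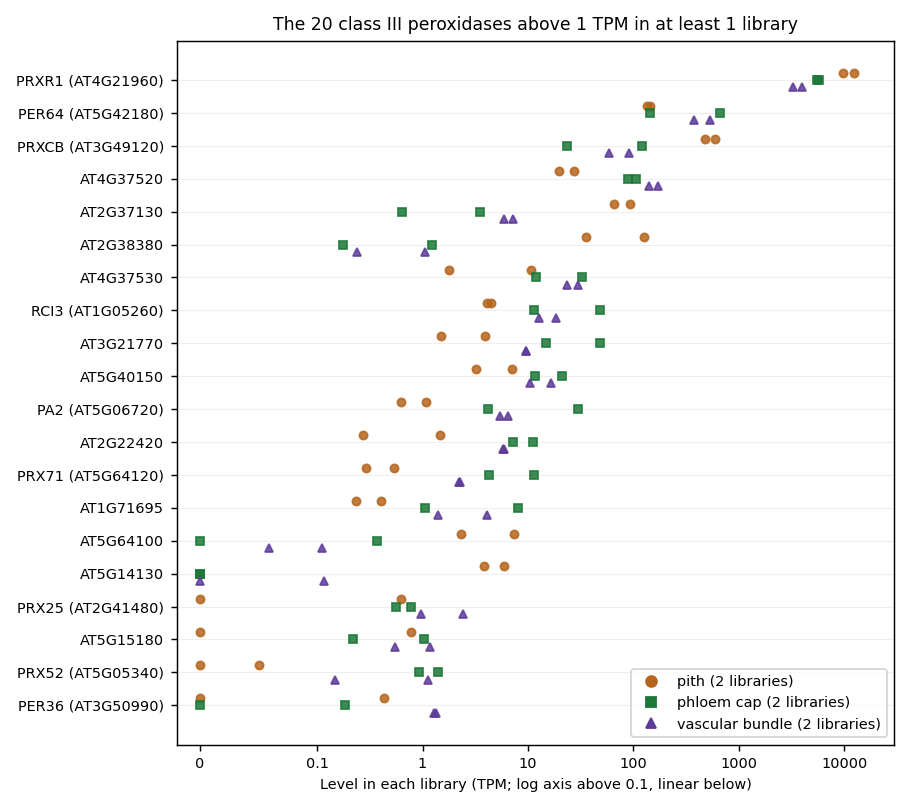
Level of each of the 20 members above 1 TPM in at least 1 library (horizontal axis in TPM, logarithmic above 0.1 and linear below), with 1 symbol per library, circles for pith, squares for phloem cap and triangles for vascular bundle. PRXR1 lies far to the right of all other members, AT2G37130, AT2G38380 and AT5G14130 have their pith circles well to the right of the other symbols, and the squares of most other members are widely spread.

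The comparison of pith against vascular bundle asked which genes are associated with the pith, the central parenchyma of the stem. Of the 19 members with enough counts to be tested, 6 were higher in pith and 2 were lower with changes of more than 2-fold and adjusted p-values under 0.01 (quasi-likelihood test of edgeR, adjusted over all genes tested by the Benjamini-Hochberg method). Over all 18063 genes tested, 5.44% were called higher and 10.5% lower. The median log2 fold change was -1.65 over the 19 members and -0.04 over all genes tested. The 6 members with positive fold changes were the 6 called higher, and the other 13 of the 19 had negative fold changes.

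Among the 6 genes higher in pith, AT2G37130 (chr2:15597921-15600154, minus strand) had the smallest adjusted p-value. It had 92.8 and 65.9 TPM in pith, 0.633 and 3.50 TPM in phloem cap and 7.265 and 5.92 TPM in vascular bundle. The pith libraries lay far above all others and the phloem cap libraries below all others. Its log2 fold change against vascular bundle was 3.75 ± 0.31 (SE, adjusted p = 0.000434).

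PRXCB (AT3G49120, chr3:18207651-18210333, plus strand), a wall peroxidase known for roles in cell elongation and in the production of hydrogen peroxide during defence, was the most abundant member in pith after PRXR1. PRXCB had 602 and 480.4 TPM in pith, 23.7 and 122 TPM in phloem cap and 59.3 and 90.4 TPM in vascular bundle. Pith and the other tissues did not overlap, and the phloem cap libraries lay on either side of both vascular bundle libraries. The log2 fold change of PRXCB was 3.02 ± 0.29 in pith against vascular bundle (SE, adjusted p = 0.000696). PRXR1 also rose in pith, by 1.77 ± 0.26 on the log2 scale (SE, adjusted p = 0.00319), the smallest rise of the 6. When all 6 libraries shared 1 fit, PRXCB had an adjusted p of 0.0144.

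AT2G38380 (chr2:16076289-16078781, plus strand), which the study itself uses as a pith gene, had 35.55 and 126 TPM in pith, 0.1745 and 1.24 TPM in phloem cap and 0.237 and 1.05 TPM in vascular bundle. Its 2 pith libraries differed by a ratio of 3.55, and yet the lower of them was far above every other library. The log2 fold change was 7.10 ± 0.85 in pith against vascular bundle (SE, adjusted p = 0.00153). With no filter on low counts the fold change was 7.11, at an adjusted p of 0.012.

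The remaining pair was called on few reads outside the pith. AT5G14130 (chr5:4558704-4560315, minus strand) had 59 and 93 counts in pith, 0 and 0 in phloem cap and 0 and 2 in vascular bundle, that is 3.81 and 5.87 TPM in pith and at most 0.116 TPM elsewhere. From these counts the pith level was 78.7 times the vascular bundle level, with an exact 95% interval of 21.4 to 656 for counting error, and the test gave an adjusted p of 0.00424. AT5G64100 (chr5:25650567-25652247, minus strand) had 118 and 38 counts in pith, 0 and 6 in phloem cap and 1 and 2 in vascular bundle, a ratio of 53.9 in pith over vascular bundle (18.1 to 264, adjusted p = 0.00522). Neither call was stable to the loss of 1 library. Without S30, the adjusted p was 0.0254 for AT5G14130 and 0.0308 for AT5G64100, and without S31 it was 0.0252 for AT5G64100. With all 6 libraries in 1 fit it was 0.0141 for AT5G64100.

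The end of AT5G14130 shares 7 bases with AT5G14120, a gene of the major facilitator superfamily on the opposite strand, and reads were counted without strand. AT5G14120 had 11985 and 12468 counts in pith, 1038 and 1565 in phloem cap and 2215 and 3066 in vascular bundle. The counts of AT5G14130 amounted to 0.492% and 0.746% of those of its partner in pith, 0% in both phloem cap libraries and 0% and 0.0652% in vascular bundle. A read touching both genes was not counted, so reads over the shared bases did not add to AT5G14130. Whether transcripts of the partner that run past its annotated end take part in the counts of AT5G14130 was not tested.

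The 2 members lower in pith were AT4G37520 and PER64. AT4G37520 (chr4:17631500-17633249, plus strand) had 27.2 and 19.8 TPM in pith, 105 and 89.4 TPM in phloem cap and 170 and 141 TPM in vascular bundle. The 3 tissues did not overlap, and the log2 fold change in pith against vascular bundle was -2.57 ± 0.28 (SE, adjusted p = 0.00111).

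PER64 (AT5G42180, chr5:16852628-16854224, plus strand), known from the lignified Casparian strip of the root endodermis, had 145 and 136 TPM in pith, 143 and 664 TPM in phloem cap and 376 and 534.5 TPM in vascular bundle. It fell by 1.53 ± 0.25 on the log2 scale in pith (SE, adjusted p = 0.00437). Without S31 the fold change was -1.29 with an adjusted p of 0.0247, and with all 6 libraries in 1 fit the adjusted p was 0.0972. PER64 shares 34 bases at its end with AT5G42190 on the opposite strand, which had 3373 to 6323 counts per library. The starch sheath, the endodermis of the stem, is marked by SCR, which had 13.0 and 17.9 TPM in pith, 2.67 and 4.55 TPM in phloem cap and 6.26 and 8.07 TPM in vascular bundle. The part of starch sheath cells in the PER64 levels was not tested.

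Several members of lower abundance had negative fold changes that missed the threshold. RCI3 (AT1G05260), a cationic peroxidase induced by cold, had 4.48 and 4.08 TPM in pith, 11.5 and 47.9 TPM in phloem cap and 12.8 and 18.3 TPM in vascular bundle, and its adjusted p in pith against vascular bundle was 0.0132. PA2 (AT5G06720), linked to wounding and flower development, had 1.09 and 0.626 TPM in pith, 4.15 and 30.1 TPM in phloem cap and 6.54 and 5.49 TPM in vascular bundle, with an adjusted p of 0.0151. AT1G71695 had 0.40 and 0.234 TPM in pith, 1.04 and 8.10 TPM in phloem cap and 4.12 and 1.41 TPM in vascular bundle, with an adjusted p of 0.0318. DESeq2, whose Wald test is the one applied by the study, called these 3 genes lower in pith as well. It called 6 members higher and 5 lower, against 8.34% and 13.9% of all genes. The number called lower also depended on the libraries, with 9 members without S34 (16.7% of all genes) and 7 without S35 (18.6%).

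**Figure D3:**
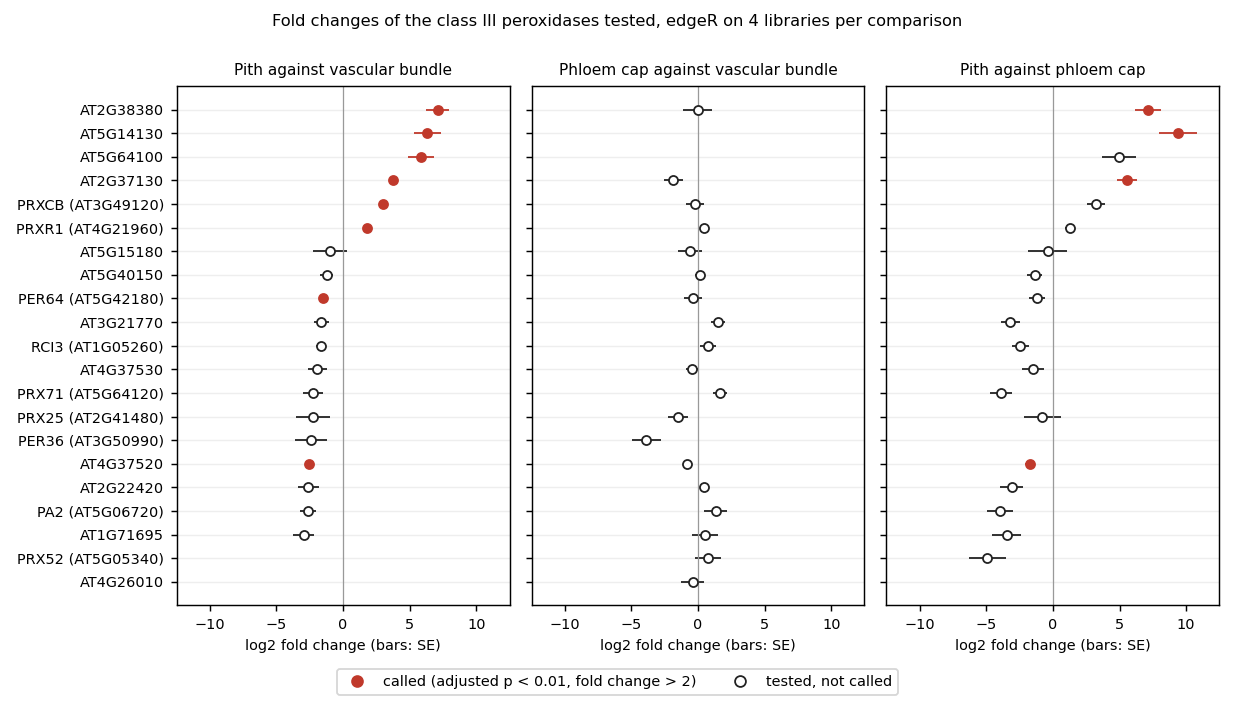
Log2 fold changes (horizontal axes, bars are SE) of the members tested in pith against vascular bundle, phloem cap against vascular bundle and pith against phloem cap, with filled red points for called members and open points for the rest. In pith against vascular bundle 6 filled points lie right of 0 and 2 left of it, in phloem cap against vascular bundle no point is filled, and in pith against phloem cap 3 lie right of 0 and 1 left of it.

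Phloem cap was compared with vascular bundle to find genes of the cells at the outer edge of the phloem. None of the 19 members tested was called in either direction by edgeR, which called 0% of all 18528 genes in this comparison. At an unadjusted p below 0.05, 2 members were higher and 3 were lower, beside 9.93% and 11% of all genes, so that the members' counts were near the background. DESeq2 likewise called 0 members, beside 2.87% of all genes higher and 3.9% lower. The median log2 fold change was -0.03 over the members and 0.04 over all genes tested.

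Among the 19 members tested, PRX71 and AT3G21770 had the highest fold changes in phloem cap against vascular bundle. PRX71 (AT5G64120, chr5:25659257-25661007, minus strand), known for roles in lignification and in responses to low osmolarity, had 0.535 and 0.29 TPM in pith, 4.29 and 11.4 TPM in phloem cap and 2.25 and 2.20 TPM in vascular bundle. AT3G21770 (chr3:7673276-7674839, plus strand) had 3.92 and 1.495 TPM in pith, 14.8 and 47.8 TPM in phloem cap and 9.496 and 9.59 TPM in vascular bundle. For both genes each phloem cap library lay above all 4 other libraries. The log2 fold changes in phloem cap against vascular bundle were 1.64 ± 0.54 for PRX71 (SE, adjusted p = 0.15) and 1.53 ± 0.53 for AT3G21770 (SE, adjusted p = 0.171).

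The outcome of this comparison hung on the phloem cap library used. Without S32, 3 members were called higher in phloem cap, where 1.37% of all genes were, namely AT3G21770 (2.11 on the log2 scale, adjusted p = 0.00217), PA2 (2.11, adjusted p = 0.00322) and PRX71 (2.15, adjusted p = 0.0076). Without S33, none was higher and 3 were called lower, beside 5.98% of all genes, namely AT2G37130 (-3.47, adjusted p = 0.00107), PRXCB (-1.75, adjusted p = 0.00463) and PER64 (-1.77, adjusted p = 0.00466). In these fits the single phloem cap library is assumed to vary like the vascular bundle libraries.

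The peroxidases differed between the phloem cap libraries in one direction. Among the 19 members with at least 60 counts over all libraries, 12 were more than 2 times higher in S33 than in S32 and 0 were more than 2 times lower, and the median ratio was 3.23. Over all 18332 genes with as many counts, 14.3% were higher in S33 by this measure, 8.18% were lower and the median ratio was 1.11. The ratio was 7.25 for PA2, 5.14 for PRXCB, 4.64 for PER64 and 4.16 for RCI3. The members also differed between the libraries of the other tissues, but in both directions. In pith 6 members were higher in S35 and 3 were higher in S34, beside 13.9% and 10.2% of all genes. In vascular bundle 4 members were higher in S31 and 2 were higher in S30, beside 5.41% and 2.19% of all genes. S33 also had the higher xylem, epidermis and photosynthesis marker sums of the phloem cap libraries, the last at 5739 against 2810 TPM. The sum of the study's phloem cap markers was higher in S33 too, at 3244 against 2580 TPM. By contrast, the phloem marker sum was lower in S33, at 2265 against 3547 TPM. For RCI3, PA2, AT3G21770 and PRX71 the level in S33 exceeded the level in both vascular bundle libraries. The xylem and epidermis sums in S33 were below both vascular bundle libraries, and the photosynthesis sum lay between them, at 5686 and 7040 TPM in vascular bundle. Most of the photosynthesis sum was RBCS1A, with 4683 TPM in S33 and 3844 and 4994 TPM in vascular bundle. The markers RBCS3B, CAB2 and LHB1B1 were each lower in S33 than in both vascular bundle libraries. The part of these cell types in the S33 levels was not tested.

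**Figure D4:**
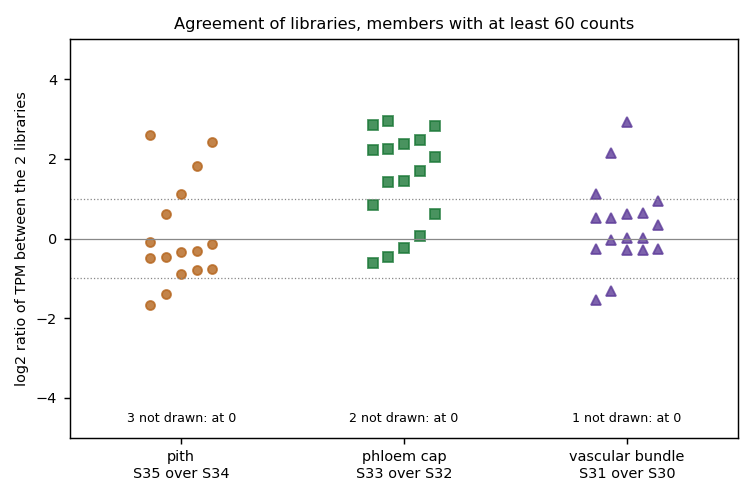
Log2 ratio of TPM between the 2 libraries of a tissue (vertical axis) for the 19 members with at least 60 counts, 1 symbol per member, with dotted lines at a ratio of 2 in either direction; members at 0 in a library are counted but not drawn. In phloem cap the symbols sit mostly above the upper dotted line and none lies below the lower one, whereas pith and vascular bundle scatter on both sides of 0.

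Pith against phloem cap, which shares its libraries with the other comparisons, gave 3 members higher and 1 lower in pith among 19 tested. The corresponding shares of all 18201 genes were 4.34% and 8.33%. AT2G37130 rose by 5.59 ± 0.75 on the log2 scale (SE, adjusted p = 0.00212) and AT2G38380 by 7.14 ± 0.98 (SE, adjusted p = 0.00242). With no filter on low counts AT2G38380 had an adjusted p of 0.0437. AT5G14130, at 0 counts in both phloem cap libraries, was at least 24-fold higher in pith when the phloem cap level was set to 3 counts per library (adjusted p = 0.00335). AT4G37520 fell by 1.76 ± 0.36 on the log2 scale (adjusted p = 0.00866). Without S34, AT2G37130 had an adjusted p of 0.011. The call of AT4G37520 was lost without S32 (adjusted p = 0.0245), S34 (0.0213) or S35 (0.0593).

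Further members had large differences in this comparison with adjusted p-values just above the threshold. The log2 fold changes were 3.24 ± 0.70 for PRXCB (SE, adjusted p = 0.0144), -3.90 ± 0.85 for PRX71 (SE, adjusted p = 0.0112) and -3.19 ± 0.71 for AT3G21770 (SE, adjusted p = 0.0133). For PRXR1 the log2 fold change was 1.28 ± 0.36 (SE, adjusted p = 0.0289). The DESeq2 test called 6 members higher and 7 lower, beside 7.35% and 12.6% of all genes.

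A member was taken to mark a tissue when it was called higher there in both comparisons with the other tissues. By this measure 3 members marked the pith, namely AT2G37130, AT2G38380 and AT5G14130, and 0 marked the phloem cap or the vascular bundle. Of all genes tested, 5.44% were higher in pith than in vascular bundle and 4.34% than in phloem cap. The share of all genes called higher in both comparisons was not calculated, so these counts cannot be set against a background. With DESeq2, or with an adjusted p of 0.05 (10.1% of all genes higher in pith than in vascular bundle, 9.77% than in phloem cap), PRXCB, PRXR1 and AT5G64100 were added to the pith, giving 6, and the other tissues stayed at 0. Because edgeR called no gene at all between phloem cap and vascular bundle, no member could have marked either of these tissues in this way.

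As a description without a test, members were also listed whose 2 libraries of a tissue both exceeded the other 4 and whose mean CPM was over 2 times that of the next tissue. For the pith these were the same 6 genes and AT4G16270, which had only 10 and 8 counts in pith, 0 and 5 in phloem cap and 6 and 4 in vascular bundle. For the phloem cap they were PRX71 and AT3G21770. For the vascular bundle they were PRX25, PER36 and AT4G33420, all at low counts. PRX25 (AT2G41480), known for a role in lignification, had 11 and 0 counts in pith, 13 and 10 in phloem cap and 45 and 19 in vascular bundle. PER36 (AT3G50990), known for opening the wall of seed coat cells so that mucilage can be released, had 7 and 0 counts in pith, 0 and 3 in phloem cap and 22 and 24 in vascular bundle. The abundant AT4G37520 was also highest in both vascular bundle libraries, but by less than 2 times over the phloem cap. How many of all genes would be listed in this way was not calculated, so the lists cannot be set against a background.

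Some members lie beside another member, and these neighbours differed in how alike they are. Of the 48 genes, 18 belonged to 10 pairs of neighbours at most 10000 bases apart, 9 of them with no coding gene between. Coding identity ran from 61.7% to 100% over the pairs, so not all of them are close copies. In 6 pairs only 1 of the genes exceeded 1 TPM in any library, in 3 pairs neither did and in 1 pair both did. AT1G05250 and AT5G64110 each enter more than 1 pair, and no read within the exons of AT1G05250 could be counted. Over all 48 members, 20 exceeded 1 TPM in at least 1 library, so the pair counts are not read as a trait of neighbours. AT2G38380 and AT2G38390 lie 897 bases apart on the same strand and share 90.6% of their aligned coding bases. AT2G38390 had at most 1 count in any library, against 852 and 3091 counts of AT2G38380 in pith. The first 60 coding bases of the pair, with differing bases in capitals, show how reads of the pair can be told apart.
AT2G38380, chr2:16076443-16076502, plus strand: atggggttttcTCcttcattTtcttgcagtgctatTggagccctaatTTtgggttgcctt
AT2G38390, chr2:16079726-16079785, plus strand: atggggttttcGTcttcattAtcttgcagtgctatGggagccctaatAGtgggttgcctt
Only 0.678% of the 50-base windows in the exons of AT2G38380 and 0.84% of those of AT2G38390 occur again elsewhere in the genome, so that nearly all reads of this length could be placed.

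**Figure D5:**
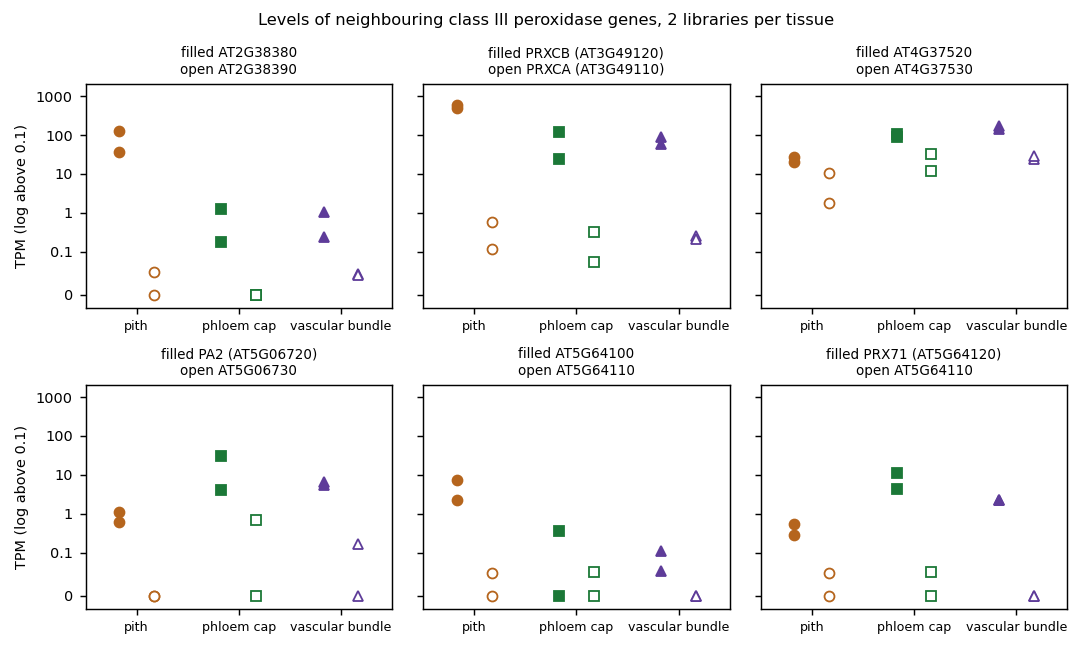
Levels (vertical axes, TPM, logarithmic above 0.1 and linear below) of 6 pairs of neighbouring members in pith, phloem cap and vascular bundle, with 1 symbol per library, filled for the first gene named and open for its neighbour. AT2G38390, PRXCA, AT5G06730 and AT5G64110 stay below 1 TPM in every library while their neighbours are expressed, and AT4G37530 lies below AT4G37520 in every library.

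PRXCB and its neighbour PRXCA (AT3G49110) share 90.7% of their coding bases, with 1 coding gene between them. PRXCA had 0.582 and 0.114 TPM in pith, 0.325 and 0.0767 TPM in phloem cap and 0.257 and 0.21 TPM in vascular bundle, far below PRXCB in each library. Of the exonic windows, 7.23% in PRXCA and 7.47% in PRXCB are repeated, which leaves most of both genes countable. In the cluster on chromosome 5, AT5G64100 was highest in pith and PRX71 in phloem cap, while AT5G64110, which lies between them, had at most 1 count per library. PA2 was expressed beside AT5G06730, which had 0 and 0 counts in pith, 0 and 12 in phloem cap and 3 and 0 in vascular bundle.

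AT4G37520 and AT4G37530, with 92.4% identical coding bases, formed the pair in which both genes exceeded 1 TPM. AT4G37530 had 1.77 and 10.7 TPM in pith, 11.9 and 32.3 TPM in phloem cap and 23.6 and 29.7 TPM in vascular bundle. Like its neighbour it had its lowest values in pith, where it was -1.95 ± 0.70 against vascular bundle on the log2 scale (SE, adjusted p = 0.0777), and its pith libraries differed by a ratio of 6.03. About 4.97% of the exonic windows of AT4G37520 and 4.90% of those of AT4G37530 are repeated. Their coding starts are shown with differing bases in capitals.
AT4G37520, chr4:17631704-17631763, plus strand: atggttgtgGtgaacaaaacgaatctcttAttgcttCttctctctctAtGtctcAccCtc
AT4G37530, chr4:17634786-17634845, plus strand: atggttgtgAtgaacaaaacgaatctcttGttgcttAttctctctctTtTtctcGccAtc

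For AT1G05240 and AT1G05250 only a part of the reads could be counted. Their coding sequences are 100% identical, and 58.9% of the exonic windows of AT1G05240 and 100% of those of AT1G05250 occur elsewhere in the genome. Only reads with a unique position were kept. AT1G05250, annotated as PRX2 with a role in lignification, had 0 counts in every library, but no read of this length within its exons could have been counted. AT1G05240, part of whose exons is unique, had 0 to 2 counts per library. Their first 60 coding bases do not differ.
AT1G05240, chr1:1521202-1521261, plus strand: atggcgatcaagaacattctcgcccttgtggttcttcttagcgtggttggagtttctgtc
AT1G05250, chr1:1527110-1527169, minus strand: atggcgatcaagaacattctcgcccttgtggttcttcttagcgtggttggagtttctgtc

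The sequence upstream of the gene start was compared for the pairs with opposed levels, reading 250 bases from the RefSeq annotation of TAIR10.1. Capitals mark matches to TATAAA or TATATA on the strand of the gene, and none of the windows printed here held an AC element (ACCTACC or ACCAACC or ACCTAAC), a W box (TTGACC or TTGACT) or a G box (CACGTG) on either strand. The windows of AT2G38380 and AT2G38390 shared 134 of 166 aligned bases, and those of PRXCB and PRXCA 141 of 215.
AT2G38380, chr2:16076039-16076288, plus strand: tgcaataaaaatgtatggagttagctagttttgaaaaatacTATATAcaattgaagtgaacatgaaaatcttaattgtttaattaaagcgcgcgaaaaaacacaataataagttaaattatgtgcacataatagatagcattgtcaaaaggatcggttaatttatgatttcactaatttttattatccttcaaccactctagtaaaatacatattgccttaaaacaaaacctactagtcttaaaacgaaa
AT2G38390, chr2:16079429-16079678, plus strand: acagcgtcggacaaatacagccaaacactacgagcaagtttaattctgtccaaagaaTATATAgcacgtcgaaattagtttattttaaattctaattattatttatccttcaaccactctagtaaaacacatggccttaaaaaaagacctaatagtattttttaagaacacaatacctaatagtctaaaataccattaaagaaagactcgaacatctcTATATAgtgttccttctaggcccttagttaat
PRXCB, chr3:18207401-18207650, plus strand: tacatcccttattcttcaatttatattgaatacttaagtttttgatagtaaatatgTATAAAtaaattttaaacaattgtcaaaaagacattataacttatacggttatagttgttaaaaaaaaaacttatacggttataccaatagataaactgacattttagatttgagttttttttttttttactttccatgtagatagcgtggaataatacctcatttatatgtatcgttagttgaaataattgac
PRXCA, chr3:18200337-18200586, plus strand: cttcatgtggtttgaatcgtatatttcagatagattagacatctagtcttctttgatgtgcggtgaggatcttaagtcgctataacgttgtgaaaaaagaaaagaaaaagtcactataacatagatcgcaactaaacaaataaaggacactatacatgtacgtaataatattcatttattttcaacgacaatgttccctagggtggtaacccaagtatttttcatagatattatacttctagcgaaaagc
Over all 48 members, 33 windows held TATAAA or TATATA, against 50.2% of the windows of all 27443 coding genes. A W box was present in 13 windows, against 28.4% of all windows, including 3 matches in that of PRX71. An AC element was present in 4, against 6.12% of all windows, and a G box in 0, against 6.49%. A match describes letters only and names no site.

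Of the 10 members linked to lignin formation, 4 could be tested in pith against vascular bundle, and 1 of these, PER64, was lower in pith. None of the 4 was called higher, and the shares of all genes tested were 5.44% higher and 10.5% lower. The median log2 fold change of the 4 was -2.26. PRX52 (AT5G05340) had 0 and 1 counts in pith, 26 and 18 in phloem cap and 3 and 24 in vascular bundle, a ratio of 46.5 in phloem cap over pith with an exact interval of 7.93 to 1880. AT5G51890, annotated with lignification of tracheary elements in roots, had at most 10 counts in a library, and PRX72 (AT5G66390), known from lignin formation, had 3 and 0 counts in pith and 0 elsewhere. AT2G22420 had 0.272 and 1.46 TPM in pith, 7.26 and 11.1 TPM in phloem cap and 5.85 and 5.89 TPM in vascular bundle, with an adjusted p of 0.0454 in pith against vascular bundle.

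Other genes of lignin formation were mostly lower in pith. Of 8 laccases tested, the copper oxidases that also polymerise monolignols, 7 were lower in pith than in vascular bundle, at a median of -4.74 on the log2 scale over the 8. Of 17 enzymes that make monolignols, 13 were lower in pith, with a median of -3.79. Of 3 respiratory burst oxidases tested, which supply the superoxide from which hydrogen peroxide forms, 2 were lower. The most abundant of them, RBOHD, was not called, with 7.64 and 5.49 TPM in pith and 11.7 and 10.6 TPM in vascular bundle. The shares of all genes tested were 5.44% higher and 10.5% lower. None of the laccases, monolignol enzymes or oxidases tested was called higher in pith, where 6 peroxidases were. The other 13 of the 19 peroxidases tested had negative fold changes. The difference between the lists was not tested. The xylem and fibre markers fell in the same comparison, 6 of 6, and the part of these cells in the list counts was not tested.

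Among the 25 genes of the family that are not members, 8 could be tested in pith against vascular bundle. Of these, 1 was higher and 1 lower, beside 5.44% and 10.5% of all genes tested. The most abundant of the 25 in phloem cap was AT5G47000, with 4.62 and 2.19 TPM in pith, 126.5 and 45.9 TPM in phloem cap and 0.321 and 2.70 TPM in vascular bundle. Its phloem cap libraries lay far above all others, by 5.72 ± 1.02 on the log2 scale against vascular bundle in edgeR (SE, adjusted p = 0.0647) and an adjusted p of 0.000955 in DESeq2. It fell by 4.39 ± 0.67 on the log2 scale in pith against phloem cap (adjusted p = 0.00292 in edgeR). Among the 19 members tested in phloem cap against vascular bundle, the highest log2 fold change was the 1.64 of PRX71.

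The members that were not detected included PER4 (AT1G14540), Prx37 (AT4G08770), AT1G14550, AT1G44970, AT1G49570, AT1G68850, AT2G18150, AT2G18980, AT4G30170, AT4G36430 and AT5G39580, besides PRX2. Prx37 is annotated as expressed in vascular bundles. At this depth its level was below 0.133 to 0.155 CPM per library, but 6.07% of its exonic windows are repeated. Another 13 had between 2 and 22 counts in total. The members of intermediate abundance that were called in no comparison by edgeR included AT5G40150, with 3.24 and 6.999 TPM in pith, 11.7 and 21.0 TPM in phloem cap and 10.5 and 16.4 TPM in vascular bundle. AT5G15180 and AT4G26010 had at most 25 counts in a library.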

How the data were processed

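RNA-seq was performed on laser-captured stem tissue after RNA amplification. The authors mapped untrimmed reads of 50 bases to TAIR10 using STAR 2.5.0a, kept unique alignments, and deposited raw counts per Araport11 gene, introns included and strand ignored. A read touching more than 1 gene was not counted. Of the count columns, 0 were left unused, and each library held 19324189 to 22571632 counts.

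From these counts, TPM was calculated with gene length including introns, as the authors did. Genes passing filterByExpr were normalized by TMM and tested using edgeR 4.0.16 (glmQLFit, robust, and glmQLFTest) in R 4.3.3 on the 4 libraries of each comparison. Calls needed a change of more than 2-fold and an adjusted p under 0.01, the thresholds of the study. SEs were calculated back from the F statistic. Scripts were tested on simulated data. DESeq2 1.42.0, 1 fit over 6 libraries, 2 other normalizations, 2 other filters, an adjusted p of 0.05 and each library left out were alternatives. Chi-square per degree of freedom between replicates was 66.1 in pith, 118 in phloem cap and 37.0 in vascular bundle, so that replicates differed by more than sampling noise.

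Members, lists and tests were chosen with earlier results of these data known. Values in each library are given for members called by edgeR, the 5 most abundant per tissue and members of described role lists, and all other members by counts or ranges, with some examples chosen after their values were seen. All 37051 identifiers were found in the RefSeq annotation of TAIR10.1, read with Python 3.11.15. Other data of the study were not analysed here.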

Additional observations from a re-analysis of the deposited data

How the results depend on the processing

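The members called higher in pith than in vascular bundle numbered 6 and ranged from 4 to 6 when 1 library was left out (2.55% to 11.1% of all genes). Those called lower numbered 2 (10.5% of all genes) and became 5 with DESeq2 (13.9%), 1 in the fit over all 6 libraries (9.4%), 4 without a count filter (10.3%), 6 at an adjusted p of 0.05 (18%) and 1 to 9 when 1 library was left out (5.2% to 18.6%). Between pith and phloem cap, the 3 called higher (4.34%) became 6 with DESeq2 (7.35%) and at an adjusted p of 0.05 (9.77%) and ranged from 2 to 4 with 1 library left out (2.94% to 4.18%). The 1 called lower (8.33%) became 7 with DESeq2 (12.6%), 3 in the fit over all 6 libraries (10.4%), 3 with library totals (10.9%), 7 without a count filter (9.88%), 8 at an adjusted p of 0.05 (16.5%) and 0 to 4 with 1 library left out (6.24% to 7.47%). Between phloem cap and vascular bundle, both counts of 0 ranged from 0 to 3 with 1 library left out, beside at most 4.19% of all genes higher and 5.98% lower. The pith markers numbered 3, and 6 with DESeq2 or at an adjusted p of 0.05, with no share over all genes calculated. As a share of all counts, the 48 members held 1.40% in pith, 0.737% in phloem cap and 0.506% in vascular bundle. No member called with all 4 libraries of a comparison changed sign in that comparison under the alternatives run. PA2, PRXCB and PER64, called in phloem cap against vascular bundle without S32 or S33, did change sign there. With 1 library left out, the log2 fold changes in phloem cap against vascular bundle ran from -0.53 to 1.42 for RCI3, -1.51 to 1.52 for AT1G71695, -1.95 to 1.32 for AT2G38380, -1.75 to 0.50 for PRXCB, -1.08 to 0.23 for AT4G26010, -1.27 to 0.072 for AT4G37530, -0.061 to 2.76 for PRX52, -0.64 to 2.11 for PA2, -2.04 to 0.0602 for AT5G15180, -0.30 to 0.45 for AT5G40150 and -1.77 to 0.34 for PER64. Those in pith against phloem cap ran from -6.48 to 0.21 for PRX25, -6.45 to 1.02 for AT5G15180 and -1.86 to 0.24 for PER64. With library totals in place of TMM, AT2G38380 was at 0.13 in phloem cap against vascular bundle, and the median of all genes moved to -0.24 in pith against vascular bundle, 0.18 in phloem cap against vascular bundle and -0.41 in pith against phloem cap. The cause of these changes was not tested. The paper describes cutting out phloem cap and pith first and the rest of the vascular bundle afterwards, so tissues may be matched. No paired analysis was run, because the labels do not say which libraries came from the same plants. The tests treated the libraries as independent. With 2 libraries per tissue, and at most 30 counts for 25 members, smaller differences were not detectable.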
